A study of Homo sapiens with 3 samples.

Results

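Small nuclear RNA (snRNA) genes were examined for peaks of ARID1B in HEK293FRT cells, which derive from HEK293, a line of human embryonic kidney. ARID1B is one of the subunits through which BAF (SWI/SNF) complexes, which remodel chromatin, bind DNA. ChIP-seq, the sequencing of DNA pulled down with a protein, was done on 2 ARID1B replicates, and 1 input sample was not analysed here. The labels name a single cell line and give no treatment and, beyond the FRT of its name, no genetic change for any sample. They do not give the culture each replicate was taken from, so the spread between the replicates may be technical. All genes that RefSeq classes as snRNA on the assembled chromosomes of hg38 were taken, 149 of 58961 genes in all, and a gene was counted when a peak lay within 1000 bp of either of its ends. Peaks of both replicates that overlapped by at least 1 bp formed 1 region. The class held 41 genes with symbols of the U groups, the gene RN7SK, 28 SNAR genes of small RNAs bound by the protein NF90, and 79 genes known only by a LOC identifier. Replicate 1 had 1792 peaks and replicate 2 had 1820, each with a score from the authors whose scale is not given in the sources used here. The lists carry no read counts, so sequencing depth is unknown.

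Small nuclear RNAs are the RNA parts of the particles that remove introns. U1 marks the start of an intron and U2 its branch point, U4, U5 and U6 join to build the catalytic spliceosome, and U11, U12, U4ATAC and U6ATAC do the same work for a rare class of introns. U7 cuts the ends of histone messages, and 7SK restrains transcription elongation. Most genes of the U groups are read by RNA polymerase II. Their promoter has an octamer far upstream and a proximal sequence element close to the start. Their transcripts end at a box just downstream of the gene. The U6, U6ATAC and 7SK genes are read by RNA polymerase III. The SNAR and LOC genes were not assigned to a polymerase here. BAF complexes are known mainly from enhancers and promoters of messenger RNA genes.

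Sequence of snRNA genes and of their flanks was read where the promoter window of a neighbouring gene reached them (RefSeq, GRCh38.p14; windows of 250 bases before to 50 after a start site), which was so within 600 bp of 12 members. The 4 shown are those in which an octamer, a proximal element or a U7 Sm site was found. In RNU7-1 the capitals mark the whole U7 gene inside the promoter window of C12orf57 (chr12:6943772-6944071, plus strand). RNU2-63P has a symbol ending in P, as in pseudogene names, but RefSeq classes it as snRNA, and it is counted here with U2. In it the capitals mark the octamer, the proximal element and the first 64 bases of the gene, in that order (chr2:88016484-88016783, minus strand). In RNU4-2, a U4 gene, the capitals mark the octamer (chr12:120291939-120292152, minus strand, ending 36 bp before the gene), and in RNU6-9, a U6 gene, likewise (chr19:893240-893437, plus strand, ending 47 bp before the gene).
RNU7-1: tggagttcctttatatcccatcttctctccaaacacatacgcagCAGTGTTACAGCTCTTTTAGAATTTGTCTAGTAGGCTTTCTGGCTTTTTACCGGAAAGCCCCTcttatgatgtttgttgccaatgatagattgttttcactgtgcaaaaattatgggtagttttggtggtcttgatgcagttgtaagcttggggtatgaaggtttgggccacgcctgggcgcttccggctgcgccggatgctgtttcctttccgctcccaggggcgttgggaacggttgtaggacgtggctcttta
RNU2-63P: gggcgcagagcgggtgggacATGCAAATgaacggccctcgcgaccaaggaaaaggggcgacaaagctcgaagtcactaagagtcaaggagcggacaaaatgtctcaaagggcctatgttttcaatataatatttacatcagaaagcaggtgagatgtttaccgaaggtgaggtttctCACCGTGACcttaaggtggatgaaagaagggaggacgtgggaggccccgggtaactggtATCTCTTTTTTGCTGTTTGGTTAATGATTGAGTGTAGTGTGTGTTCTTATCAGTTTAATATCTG
RNU4-2: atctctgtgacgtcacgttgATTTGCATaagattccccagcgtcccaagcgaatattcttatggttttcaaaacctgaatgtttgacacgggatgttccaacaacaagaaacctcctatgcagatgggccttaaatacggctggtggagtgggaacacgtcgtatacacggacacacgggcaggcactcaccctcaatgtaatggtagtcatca
RNU6-9: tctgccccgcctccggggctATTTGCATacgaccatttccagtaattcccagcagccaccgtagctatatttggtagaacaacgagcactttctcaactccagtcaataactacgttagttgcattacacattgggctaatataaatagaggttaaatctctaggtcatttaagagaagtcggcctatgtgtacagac

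The octamer was searched as ATGCAAAT on both strands. It lay 222 to 229 bp before RNU4-2, 209 to 216 bp before RNU2-63P and 217 to 224 bp before RNU6-9, and 1.77% of all 35116 promoter windows hold it. Both RNU4-2 and RNU2-63P had ARID1B peaks, whereas RNU6-9 had none. The proximal element was searched as CACCNTNAC and was found 51 to 59 bp before RNU2-63P; 2.94% of windows hold it. The U7 Sm site, which binds the ring of Sm-class proteins, was searched as AATTTGTC and lay at bases 21 to 28 of RNU7-1; 0.629% of windows hold it. The octamers and the proximal element lay outside the peaks of both replicates at RNU4-2 and RNU2-63P, and the Sm site lay inside both peaks at RNU7-1. The TATA box (TATAAA) was matched at 2 of the 12 members, RNU7-1 and RNU6-9, and is held by 11.5% of windows. At RNU7-1 the match lay 30 to 35 bp before the gene on the minus strand, opposite to the gene. At RNU6-9 it lay 99 to 104 bp before the gene on the plus strand, and bases closer than 47 bp could not be read. The GC box (GGGCGG) was matched at 4 members and in 45.0% of windows. Of the 2 parts of the ZNF143 site, CCCANNATG was matched at RN7SK alone (4.63% of windows) and ACTACANNT at no member (3.58%), and the AP-1 site (TGANTCA) was matched at no member (7.71%). These matches are letters in the windows that could be read, and most members had no window.

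Among the named U groups, peaks of both replicates were found at U1, variant U1 (RNVU1), U2, U4, U5, U7, U11 and U12 genes. No peak was found at U6, U6ATAC or U4ATAC genes. These groups hold 1 to 17 genes each, so their shares are not ranked. Of 149 snRNA genes, 18 (12.1%, exact Clopper-Pearson 95% interval 7.32 to 18.4) had a region of both replicates, against a background of 0.638% of all genes. Among other genes no longer than the longest snRNA gene (332 bp), 0.338% had one (29 of 8590). Counting a peak of either replicate, 27 snRNA genes had one, against 1.08% of all genes. The 9 genes that made up the difference had a peak in 1 list only, 2 in replicate 1 and 7 in replicate 2. All intervals on shares cover counting error only.

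By group, 3 of 4 U1 genes had a region of both replicates (75.0%, exact 95% interval 19.4 to 99.4), and the remaining one, RNU1-4, had a peak of replicate 2. Of the variant U1 genes (RNVU1), which differ from U1 in sequence, 4 of 17 had one (23.5%, 6.81 to 49.9) and 5 more had a peak in 1 list. Regions of both replicates were found at 2 of 3 U2 genes (RNU2-2 and RNU2-63P), 1 of 2 U4 genes and 2 of 5 U5 genes. The single genes of U7, U11 and U12 each had one, and that of U4ATAC had none. Together 15 of the 35 U-group genes read by RNA polymerase II had a region (42.9%, 26.3 to 60.6), against 0 of 6 U6 and U6ATAC genes, for which the upper 95% bound was 45.9%. A difference between these classes was already known in these data and was not tested here. RN7SK had no peak, nor did any of the 28 SNAR genes (upper 95% bound 12.3%). How reads matching several copies were treated is not given, so a lack of peaks in families of many copies is uncertain. Of 79 LOC genes, 3 had a region (3.80%, 0.790 to 10.7).

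**Figure D1:**
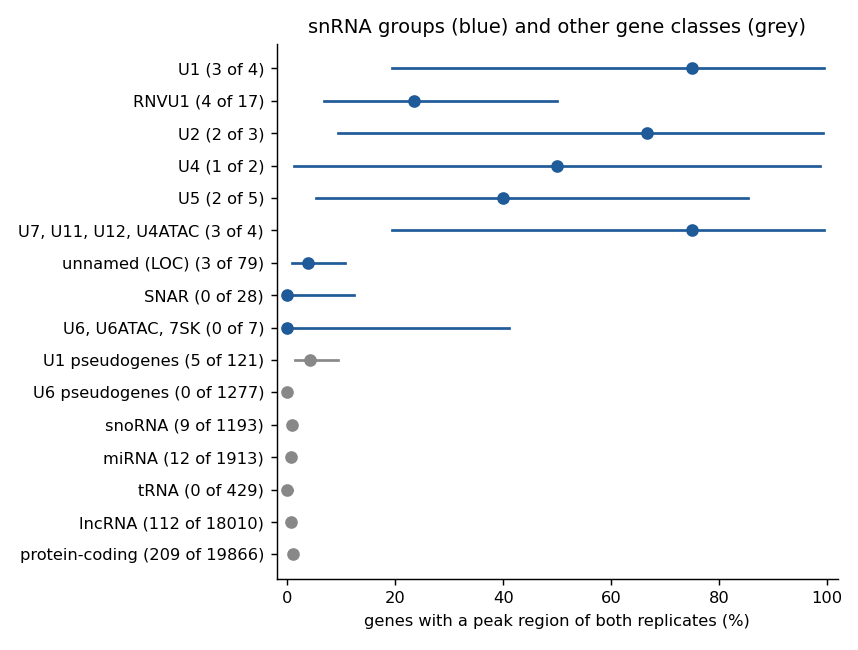
Share of genes with an ARID1B peak region of both replicates (x axis, %) for groups of snRNA genes (blue) and other gene classes (grey); points are shares, lines exact Clopper-Pearson 95% intervals for counting error. U1 stood at 75.0% and RNVU1 at 23.5%, while protein-coding genes stood at 1.05% and transfer RNA genes at 0%.

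At the 8 members given a direction, peaks lay on the body of the gene and past its 3′ end rather than on the upstream promoter. The gene table has no strand, so the direction was taken from general knowledge for 6 members (RNU1-1, RNU1-2, RNU2-2, RNU4-2, RNU11 and RNU12). For RNU7-1 and RNU2-63P it follows from the sequence above. This reading was added after the peaks were seen, with no rule set beforehand for which members to orient. The others of the 18 members with a region of both replicates, RNU1-3 among them, were given no direction. Where their peaks lie relative to a start is not known here. In all 16 peaks of the 8 genes given a direction the middle lay 148 to 322 bp downstream of the transcription start. The median was 240 bp in replicate 1 and 226 bp in replicate 2 (SD over genes 48.6 and 54.3, n = 8 each). In 14 of the 16 the middle lay past the end of the gene. None reached more than 101 bp upstream of the start, and 6 of 16 reached upstream at all, whereas every one of the 16 reached past the 3′ end of the gene, by 92 to 407 bp.

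At RNU1-2 the peaks ran from 72 to 541 bp downstream of the start in replicate 1 and from 79 to 566 in replicate 2, so both left the first bases of the U1 gene uncovered. At RNU2-2, a U2 gene, they began 4 and 2 bp after the start and ended 485 and 482 bp after it. At RNU1-2 and RNU2-2 the upstream edges of both lists lay close together. At RNU12 and RNU1-1 the replicates differed at the upstream edge. At RNU12 it lay 148 bp after the start in replicate 1 and 29 bp after it in replicate 2, so the peaks covered 2 and 121 of the 150 bases of the gene. At RNU1-1 it lay 32 bp after the start in replicate 1 and 101 bp before it in replicate 2, and the other edge lay 409 and 420 bp after it.

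**Figure D2:**
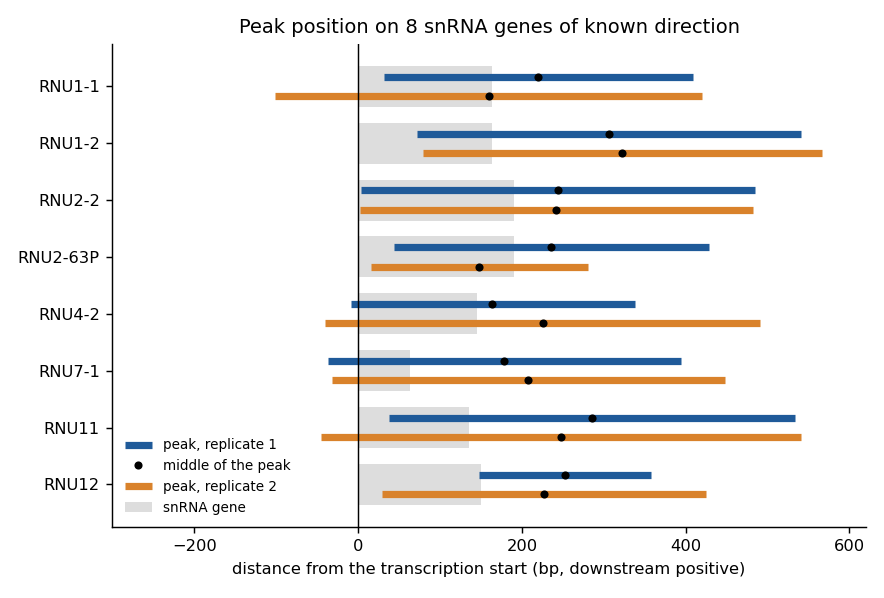
Extent of the ARID1B peaks of each replicate (coloured bars) on 8 snRNA genes given a direction, for most of them from general knowledge. The x axis is the distance from the transcription start in bp with downstream positive. Grey boxes are the genes and black dots the middles of the peaks. All 16 middles lie 148 to 322 bp downstream, and no bar reaches more than 101 bp upstream.

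At protein-coding start sites away from snRNA genes the position was different. For 127 regions of both replicates outside snRNA genes that lay within 1000 bp of a protein-coding start site in the promoter table, the middle lay at a median of -163 bp, that is upstream (quartiles -230 and -112). It was downstream in 17 of the 127 (13.4%). In 7 (5.51%) it fell within the range of 148 to 322 bp seen at the 8 snRNA genes given a direction. Among those 8 genes, RNU2-2, RNU4-2, RNU7-1, RNU11 and RNU12 had regions that also lay within 1000 bp of a protein-coding gene's end. Only RNU1-1, RNU1-2 and RNU2-63P give the contrast free of such an end. This contrast is a description and was not tested. Over all 18 members with a region of both replicates, whatever their direction, the middle of the peak lay outside the gene in both lists in 13. The distance of the middle from the middle of the gene had a median of 161 bp in replicate 1 (46.0 to 226) and 153 bp in replicate 2 (54.0 to 249). The side was the same in both lists in all 18, which the overlap required of these regions favours by itself. The region touched the gene in 26 of the 27 members with any peak, and the remaining one, RNVU1-28, had a gap of 32 bp. Just outside the limit of 1000 bp lay RNU4-1, a U4 gene. Its nearest peaks, 1.18 kb away in replicate 1 and 1.15 kb in replicate 2, were those already counted at RNU4-2.

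Of the 18 regions, 5 (27.8%) were also within 1000 bp of a protein-coding gene's end, against 12.3% of the other 1294 regions (159). All 5 belonged to U2, U4, U7, U11 and U12 genes, and none to U1, RNVU1 or LOC genes. The region of RNU7-1 covered the start site of C12orf57 itself, so ARID1B at the U7 gene cannot be told apart from ARID1B at that promoter. The region of RNU4-2 covered the annotated 5′ end of SIRT4, a sirtuin gene (a gap of 0 bp), so the same holds for the U4 gene, although it ended 246 bp from the start site of SIRT4 in the promoter table. That of RNU12 began 390 bp from the start site of POLDIP3. At RNU2-2 the region lay 2 bp from an annotated end of WDR74, but 1665 bp from its start site in the table. At RNU11 it lay 286 bp from an end of TAF12, a gene of the general transcription factor TFIID, and 5488 bp from its start site. So 1 of the 5 regions reached a start site of its neighbour in the promoter table and 1 more reached the neighbour's annotated 5′ end, and the remaining 13 regions had no protein-coding end within 1000 bp.

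Among U1 genes RNU1-1 scored highest, with 95 in replicate 1 and 136 in replicate 2 (chr1:16513865-16514386). RNU1-2 scored 64 and 62 (chr1:16896052-16896546) and RNU1-3 scored 50 and 40 (chr1:16666476-16667005). RNU1-4 scored 41 in replicate 2 and had no peak in replicate 1. Only RNU1-1 of these 4 genes was above the list median in either replicate (74 and 75). The variant genes reached higher scores. RNVU1-14 had 266 and 342 (chr1:145281133-145281760), RNVU1-27 had 148 and 264 (chr1:148522645-148523193) and RNVU1-15 had 131 and 306 (chr1:144412605-144413066), all above every U1 gene in both lists. RNVU1-18, the remaining one, had 84 and 70. Copies of U1 are near-identical and a read can match several of them, so the split of signal among U1 and RNVU1 genes is uncertain.

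The variant genes with a peak in 1 list scored low. RNVU1-28 and RNVU1-30 had 36 and 22 in replicate 1, and RNVU1-6, RNVU1-31 and RNVU1-8 had 88, 46 and 26 in replicate 2. RNVU1-6 was the only one of these 5 above the median of its list. The other 8 variant genes (RNVU1-1, RNVU1-2A, RNVU1-3, RNVU1-4, RNVU1-7, RNVU1-17, RNVU1-19 and RNVU1-26) had no peak. The stretch from RNVU1-18 to RNVU1-30 on chromosome 1 spanned 5.91 Mb. It was bounded by the peaks of these genes, so the regions at its ends lay at snRNA genes by choice. It held 8 regions of both replicates. Of these, 5 lay at snRNA genes and 2 at genes that RefSeq classes as U1 pseudogenes, RNVU1-22 (165 and 293) and RNVU1-21 (26 and 47). The remaining one was at chr1:146387504-146387957 (73 and 146). Of the 12 regions of 1 list in the same stretch, 5 lay at snRNA genes. 

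U2, U4, U5, U7, U11 and U12 had 1 or 2 genes each with a region. RNU7-1 scored 177 and 286 (chr12:6943779-6944264) and RNU11 scored 105 and 160 (chr1:28648555-28649141). RNU12 was low in both lists, with 30 and 54 (chr22:42615273-42615669), and RNU4-2 with 26 and 50 (chr12:120291412-120291943). All 4 were higher in replicate 2. Of the U2 genes, RNU2-63P scored 112 and 88 (chr2:88016119-88016531) and RNU2-2 scored 53 and 62 (chr11:62841324-62841807). Of the U5 genes, RNU5F-1 scored 83 and 118 (chr1:44721541-44721863) and RNU5B-1 scored 81 and 40 (chr15:65304756-65305138). These 4 went both ways between the replicates. The other U5 genes had no peak. The peaks nearest to RNU5D-1 were those of RNU5F-1, 9.27 kb away in replicate 1 and 9.21 kb in replicate 2. Those nearest to RNU5A-1 were the peaks of RNU5B-1, 8.59 and 8.62 kb away. For RNU5E-1 the nearest was 525 kb away in both lists.

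RNU2-1, the named U2 gene of chromosome 17, had no peak, and the nearest was 62.4 kb away in replicate 1 and 5.78 kb in replicate 2. Beside it lay 12 LOC genes over 60.3 kb, 11 of 191 bp and 1 of 192 bp; RNU2-2 is also 191 bp long. One of them, LOC124904143, had a region of both replicates (52 and 66; chr17:43296249-43296672). LOC124904135, LOC124904136 and LOC124904138 had peaks of replicate 2, scoring 16, 37 and 38, and the other 8 had none. All 4 were below the median of their list. A region with higher scores, 99 and 168, lay past the last of these genes at chr17:43315929-43316288, within 1000 bp of no snRNA gene. Which copy the reads of a repeat come from is uncertain.

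**Figure D3:**
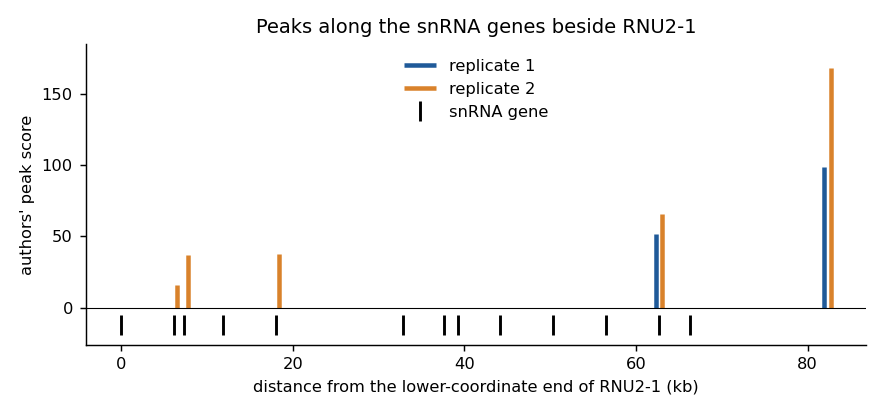
Authors' peak score (y axis, no unit) of ARID1B peaks of replicate 1 (blue) and replicate 2 (orange) against distance from the lower-coordinate end of RNU2-1 in kb; black ticks are the 13 snRNA genes of the stretch, and the bars of each replicate are drawn slightly apart. One gene has peaks of both replicates (52 and 66), and the highest bars (99 and 168) stand at no snRNA gene.

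Of the remaining LOC genes, LOC124904122 had one of the highest scores of the class, 258 in replicate 1 and 290 in replicate 2 (chr17:58658821-58659360), within the span of TEX14, a gene of germ cell bridges. LOC124904613 on chromosome 1 had 91 and 38 (chr1:146376809-146377205). The files do not annotate what these genes encode.

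The U6 and U6ATAC members and RN7SK, which are read by RNA polymerase III, lay at least 47.0 kb from any peak. The nearest peak was 752 kb from RN7SK and 731 kb from RNU6ATAC in both lists, and for the 5 U6 genes it was 47.0 kb (RNU6-1), 67.0 kb (RNU6-7), 68.1 kb (RNU6-8), 631 kb (RNU6-2) and 759 kb (RNU6-9) in both lists. For RNU4ATAC, which is read by RNA polymerase II, it was 455 and 456 kb. Among all 122 members without a peak the median was 423 kb in replicate 1 and 420 kb in replicate 2, and 8 had one within 10 kb. Other non-coding genes of RNA polymerase III also had none, namely RMRP and RPPH1, the RNA parts of the enzymes RNase MRP and RNase P, and the Y RNA gene RNY1. Of 1193 snoRNA genes 9 had a region of both replicates (0.754%), near the 0.638% of all genes. Among them were SNORD118 (U8; 171 and 163) and SNORD3A (U3; 87 and 166), which are read by RNA polymerase II. The region of SNORD118 also lay 508 bp from an end of the protein-coding gene TMEM107.

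Genes that RefSeq calls pseudogenes of snRNAs were compared in the same way, since they share the sequence of the RNA. Of 2045 of them 5 had a region of both replicates (0.244%, exact 95% interval 0.0794 to 0.570), against 12.1% of the snRNA genes. All 5 were of the U1 type, 5 of 121 (4.13%, 1.36 to 9.38). None of 1277 U6 pseudogenes had one (upper 95% bound 0.288%), nor any of 68 U2, 89 U4, 29 U5, 168 U7 or 293 7SK pseudogenes. RNVU1-34 had the highest scores, 493 and 330 (chr17:58679163-58679732), above every member in replicate 1. RNU1-27P (111 and 198) and RNU1-28P (43 and 140) followed with RNVU1-22 and RNVU1-21. At RNU1-28P the middles of the peaks lay 450.5 and 447.0 bp from the middle of the gene, farther than at any member.

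The scores of the 18 regions were ordinary for their lists. They ran from 26 to 266 in replicate 1 with a median of 87.5 and from 38 to 342 in replicate 2 with a median of 79.0, and the median over all 1313 regions of both replicates was 91.0 in each list. In replicate 1, 12 of 18 were above the list median and in replicate 2, 9 of 18. The peaks were wide, with medians of 388 and 481 bp, against 322 and 330 bp for all peaks in regions of both replicates. The score was higher in replicate 2 in 12 of 18 members (66.7%) and in 50.8% of all 1305 one-to-one pairs. The log2 ratio of replicate 2 to replicate 1 had a median of 0.35 (SD 0.67, n = 18) at snRNA genes, against 0.03 (SD 0.74) over all pairs, a gap smaller than the spread. The largest ratios either way were at RNVU1-15 (log2 ratio 1.22) and LOC124904613 (-1.26).

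**Figure D4:**
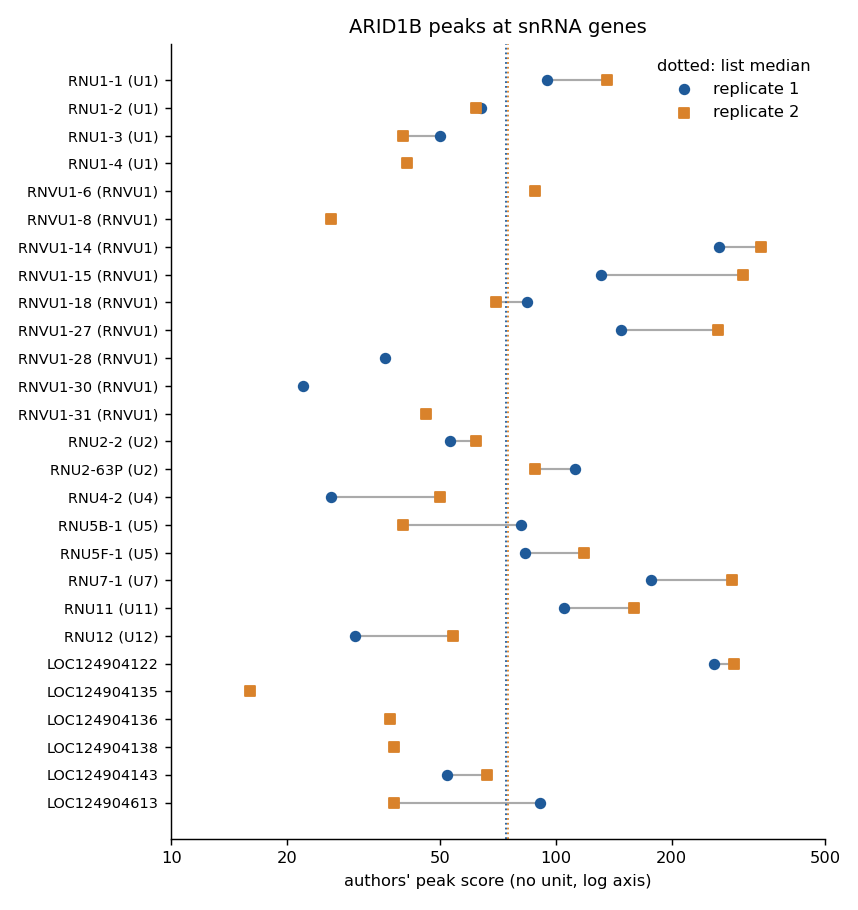
Authors' peak score (log axis, no unit) in replicate 1 (blue circles) and replicate 2 (orange squares) for the 27 snRNA genes with a peak in either list, with the group in brackets; grey lines join genes with a region of both replicates and dotted lines mark the list medians of 74 and 75. RNVU1-14 has the highest scores (266 and 342), and all but 1 of the 9 genes with a peak in 1 list lie below the median.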

How the data were processed

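ARID1B ChIP-seq peaks of 2 replicates were used. The tools named per the submitters' processing notes are MACS2 2.1.2, Bowtie2 2.3.4.1 and, for base calls, bcl2fastq 2.20.0.422, and the build is hg38. Not given in the sources used here are the peak threshold, the treatment of duplicate and multiply matching reads, and the use of the input. The authors deposited 1 peak list per replicate, with a whole-number score per peak, used here only for ranks within a list and for ratios of paired peaks. Starts were converted to count from 1. Genes came from a RefSeq table of GRCh38.p14; 718 genes of unlocalized or alternate sequences were left out, among them 7 of 156 snRNA entries. Members, groups and lists were chosen with earlier results of these data known. The promoter table holds 0 windows of snRNA genes, so motifs were searched in windows of neighbouring genes instead of the planned snRNA promoters, and first transcribed bases of U1 are not shown. Genes named were all members with a peak and the members of the U groups, with protein-coding genes, other non-coding RNA genes and U1 pseudogenes beside them; the pseudogenes were added after the peaks were seen. Shares carry exact Clopper-Pearson 95% intervals; no test was run. A region's score in a list was its highest peak's. The calling of genes was run on simulated peaks placed within 1000 bp of snRNA genes. Their recovery was set by this placing, so it is only a check of the steps. Alternatives are given with the closing observations. Python 3.11.15, pandas 2.3.3 and scipy 1.17.1 were used.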

Additional observations from a re-analysis of the deposited data

How the results depend on the processing

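The count of 18 snRNA genes with a region of both replicates stayed within 1.5 times under windows of 500 and 5000 bp, 50% reciprocal overlap, and without regions at protein-coding ends, and ran from 20 to 25 when 1 replicate was left out and the peaks of the other were counted alone. With only the peaks at the list's median score or higher, 9 genes had a region (6.04%, against 0.307% of all genes), 13 had a peak of either list, 2 regions lay at a protein-coding end, the median distance of the region's middle from the nearer gene end was 110 bp against 77.8 bp, and the median of the lower percentile was 78.3 against 51.3, a rise that the choice of high-scoring peaks sets by itself. The distance was 93.8 bp with the window of 5000 bp, and the percentile was 56.8 with 50% reciprocal overlap. The cause of these shifts was not tested. With 1 replicate left out, the distance was 54.5 to 97.5 bp and the percentile 38.6 to 57.3. These values cover the 20 to 25 genes with any peak in the list kept. The percentile there is that list's own, not the lower of both lists, so it is a different measure from the main one. Regions at a protein-coding end numbered 5 with either replicate left out. Chosen after seeing the data, leaving out U1 and RNVU1 genes gave 11 genes. Chosen likewise, the distance downstream of the transcription start in the 8 genes given a direction had a median of 218 bp. Without read counts, a gene with no peak cannot be told from one below the peak threshold. No paired analysis was possible because the ARID1B samples form 1 group and no test was run.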
